A study of Luscinia megarhynchos and Luscinia luscinia with 4 samples.

Results

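The genes EFNB1, SEMA7A and PCDH7 encode proteins of the cell surface that act where cells touch, and rows with these names are in an expression table of the germline-restricted chromosome (GRC) of nightingales. The members are the rows of the deposited expression table that carry these symbols. They make up 3 of its 799 rows, with 1 identifier each, and are listed by the flycatcher proteins XP_005045813 (EFNB1), XP_016156252 (SEMA7A) and XP_016153554 (PCDH7). They were picked for their difference between ovary and testis within a species, so that difference is given here as a description and no test is attached to it. The table covers 4 mRNA libraries from 4 adult birds caught in the wild, 1 ovary and 1 testis of the common nightingale (*L. megarhynchos*) and 1 ovary and 1 testis of the thrush nightingale (*L. luscinia*). The labels name no treatment of the birds, and give all 4 samples as DNA-depleted mRNA. The ovaries came from the females whose blood gave the somatic reference genomes, and the testes came from a further male of each species. With 1 library per species and tissue there was no replicate and no spread between birds, and tissue, sex and bird cannot be told apart.

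Songbirds carry the GRC in germ cells only, because it is eliminated from somatic cells early in development. Its genes are largely copies of genes on the ordinary (A) chromosomes, which every cell keeps. EFNB1 encodes ephrin-B1, a ligand that spans the membrane, binds Eph receptors on a neighbouring cell and also signals back into its own cell, and it is best known for sorting cells at tissue boundaries in the embryo. SEMA7A encodes semaphorin 7A, a semaphorin held in the membrane by a lipid anchor, which signals through beta-1 integrin and plexin C1 and promotes the outgrowth of axons in the mouse. PCDH7 encodes protocadherin-7, a member of the cadherin superfamily that mediates adhesion between cells.

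The values are FPKM, sequenced fragments scaled by the length of the gene and the reads of the library, and a row is called above 0 where any read was counted. Library sizes recovered from the table lay between 35404629 and 57644189 reads, and between 135 and 198 rows were above 0 in a library. For the 192 genes that the study annotated in detail, FPKM is read here as reads scaled by library size and whole flycatcher coding length. The result is then multiplied by the proportion of the gene present on the GRC. This form was inferred, because all values above 0 of these genes come out as whole reads under it. The study instead describes FPKM set on the length of the gene on the GRC. EFNB1 is 1 of these 192 genes, and its reads could be recovered as whole numbers. SEMA7A and PCDH7 are among the 607 other rows, which did not enter that annotation. The study kept to genes with 25% or more of the coding region on a GRC because a short stretch can be assigned to the wrong homologous protein, so these rows may not come from the genes they are named for. For them length and proportion are not known here. If their FPKM was made in the same way, both cancel between tissues of a species, and their reads are given as the smallest whole numbers that fit both tissues, and the true numbers may be a multiple of these. Only reads with a unique place were kept, but mRNA of an A-chromosomal copy that was placed on the GRC by error would also give a value above 0, and its part in the members' values was not tested. A gonad holds germ cells with a GRC and somatic cells without it, so fewer germ cells and less RNA per germ cell cannot be told apart. Because the share of cells with a GRC is unknown, the study advises against comparing FPKM between datasets. The ratios given here describe these libraries only. The study also reports fewer GRC copies in male than in female germ cells, with exceptions. The part of this in the tissue ratios was not tested. Of 36 marker genes of ovary, testis, germ cells, blood and other somatic cells, 4 have a row, each for a GRC copy, so the tissue labels could not be checked against markers. DMRT1, a gene of male sex determination in birds, was listed at 0 in both testes, and its FPKM in the ovaries was 0.267 for *L. megarhynchos* and 0.436 for *L. luscinia*. Of the germ cell markers, SYCE3 stood at 12.1 in the *L. megarhynchos* ovary and 0.216 in its testis, and at 0 in *L. luscinia*. SYCP1 stood at 0.365 and 0.0110 in these *L. megarhynchos* tissues, and at 0.0681 in the *L. luscinia* ovary and 0 in its testis. TEX12 was listed at 0 throughout. The share of germ cells was not tested with them.

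EFNB1 was above 0 in 3 libraries, and it was the only member found in *L. luscinia*. In *L. megarhynchos* its FPKM was 6.26 in the testis and 3.47 in the ovary. In *L. luscinia* it was 0.442 in the ovary, and the testis was listed at 0. The *L. megarhynchos* libraries were both above the *L. luscinia* libraries, and the tissues stood in opposite order in the species. The *L. megarhynchos* values rest on 207 testis reads (exact Poisson 95% interval 180 to 237) and 187 ovary reads (161 to 216). The *L. luscinia* ovary held 21 reads (13.0 to 32.1). No read was found in the *L. luscinia* testis, for which 3 reads are taken as the limit in ratios, or 0.0600 RPM (reads scaled to a library of 1000000 reads). The exact Poisson interval of 0 reads, made like the others, reaches 3.69 reads or 0.0738 RPM. Intervals of reads cover counting error only and say nothing about other birds. The intervals of ratios below, between tissues and between species, share this limit. They also make no allowance for the members having been picked on the tissue contrast, which used these same values, so they are not tests.

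**Figure D1:**
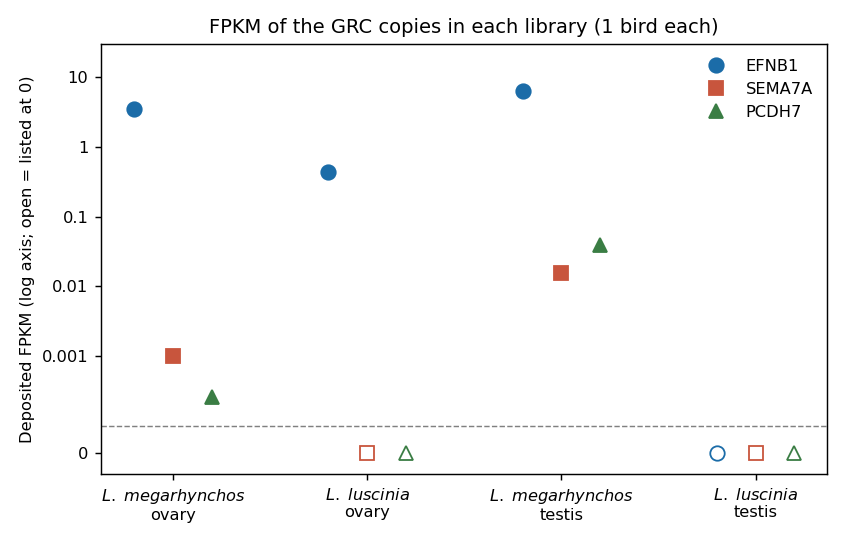
Deposited FPKM (log axis) of EFNB1, SEMA7A and PCDH7 in each of the 4 libraries, 1 bird each, with open symbols below the dashed line for values listed at 0. EFNB1 is above 0 in 3 libraries, while SEMA7A and PCDH7 are above 0 in the *L. megarhynchos* libraries only and are higher in its testis. Heights compare within a gene between tissues of a species, not between genes, and between species they also carry the proportion present on each GRC.

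EFNB1 stood at 5.85 RPM in the testis and 3.24 in the ovary of *L. megarhynchos*. The testis value was 1.80-fold that of the ovary, with an exact conditional 95% interval from counting error of 1.47 to 2.21. On the log2(FPKM + 0.01) scale used for all rows this is an ovary to testis difference of -0.85, short of a 2-fold difference. At the testis rate the ovary library would have held 337 EFNB1 reads, where 187 were found. The median row lay nearby. Across the 114 rows above 0 in both tissues of *L. megarhynchos* the median log2 ratio of ovary to testis was -0.70, and 71 of them were higher in testis. Relative to that median the EFNB1 difference was -0.15, and with libraries scaled to equal summed FPKM it was -2.58. Such a sum leans on single high rows. LOC101808355 alone held 115.3 of the summed 505.9 FPKM in this ovary, and 0.15 of 151.6 in the testis.

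In *L. luscinia* the order was the reverse, with 0.573 RPM for EFNB1 in the ovary and none in the testis. With 3 reads set in place of 0 for the testis, the ovary stood 9.55-fold higher. That value leaves out counting error in the ovary, and the lower end of the exact interval was 7.10. At the rate of the ovary the testis library would have held 28.6 reads. On the pseudocount scale the difference was 5.50, a number that depends on the pseudocount. Of the 180 rows above 0 in either tissue of *L. luscinia*, 23.9% were at least 2-fold higher in ovary on that scale and 25.0% were above 0 in the ovary only. EFNB1 belongs to both groups, but it was picked on this contrast, so nothing is read from its place there. The median log2 ratio of the 95 rows above 0 in both tissues was -0.55.

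SEMA7A was above 0 in *L. megarhynchos* only. In this species its FPKM was 0.0152 in the testis against 0.0010 in the ovary, and both *L. luscinia* libraries were listed at 0. The smallest whole numbers of reads behind these values are 28 in the testis and 3 in the ovary, which are 0.791 and 0.0520 RPM. The testis was 15.2-fold higher, with an exact interval of 4.69 to 78.1 at these numbers. At the testis rate the ovary would have held 45.6 reads. On the log2(FPKM + 0.01) scale the ovary to testis difference shrank to -1.20, since the pseudocount is close to the testis value and above the ovary value.

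PCDH7 had the widest gap between tissues of the members. The *L. megarhynchos* testis had an FPKM of 0.0389 against 0.000254 for the ovary, and both *L. luscinia* libraries were again listed at 0. The smallest whole numbers are 94 reads in the testis and 1 in the ovary, or 2.66 and 0.0173 RPM. The testis was 153-fold higher with an exact interval of 26.8 to 6109, wide because the ovary value may rest on a single read. At the testis rate 153 reads would have been found in the ovary. With the pseudocount the difference was -2.25.

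Of the 267 rows above 0 in at least one *L. megarhynchos* tissue, 26.6% were at least 2-fold higher in testis on the pseudocount scale, and SEMA7A and PCDH7 are 2 of these 71 rows. The contrast is the one that chose them, and their place there depends on the setting. A fixed pseudocount shrinks the ratios of rows with low FPKM the most. Under the inferred form, deposited FPKM is not on one scale across genes, so the share sets unlike rows together. With a pseudocount of 0.1 the log2 ratio of ovary to testis was -0.19 for SEMA7A and -0.47 for PCDH7, and with the median row set to 0 it was -0.96 for SEMA7A, all short of 2-fold. In the order of the 114 rows above 0 in both tissues, from the most testis-biased down and without a pseudocount, PCDH7 stood at place 6, SEMA7A at 26 and EFNB1 at 56. Among the 46 of these rows outside the annotated set, PCDH7 came first and SEMA7A at place 10, and the median log2 ratio of ovary to testis there was -1.50. The row next to PCDH7 on the side of the testis was LOC101821172, at a log2 ratio of -7.94, and the row after it was LOC107603907 at -7.16, against -7.26 for PCDH7. SEMA7A, at -3.93, lay between LOC101815902 (-3.98) and LOC101820386 (-3.59). EFNB1, at -0.85, lay between LOC101806988 (-1.12) and LOC101814060 (-0.70). Each of these neighbours fell within the counting interval of the ratio of the member beside it.

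**Figure D2:**
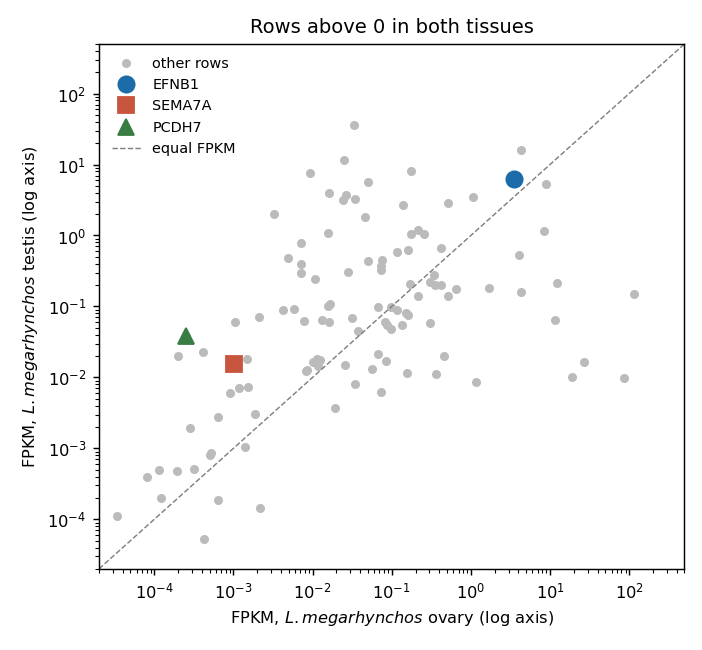
FPKM in the testis against FPKM in the ovary of *L. megarhynchos* (log axes) for the 114 rows above 0 in both, with the dashed line at equal FPKM. EFNB1 lies near the line, while SEMA7A and PCDH7 lie further above it.

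Set against the other annotated genes by reads over the length present, with the study's correction for conservation, EFNB1 ranked 14 of 86 genes above 0 in the *L. megarhynchos* testis, where it had 6.97 FPKM on that scale. In the ovary of the species it ranked 18 of 98 with 3.87, and in that of *L. luscinia* 26 of 81 with 0.949. Its share of the reads on annotated GRC genes was 2.30% in the *L. megarhynchos* testis against 0.373% in the ovary, and 0.198% in the *L. luscinia* ovary. These shares set EFNB1 further apart between the *L. megarhynchos* tissues than the library-scaled values do, since 9009 reads fell on annotated genes in the testis and 50088 in the ovary. The depth behind the other members, at their smallest whole numbers of reads, differed between the tissues. In the *L. megarhynchos* testis, where the median annotated gene above 0 had 12 reads, 22 of 86 had at least the 94 reads of PCDH7 and 30 at least the 28 of SEMA7A. In the ovary, where the median was 16 reads, SEMA7A had 3 and PCDH7 had 1. At least 3 reads were found for 77 of 98 annotated genes above 0, and every gene above 0 has at least 1.

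The inferred multiplication by the proportion present holds down the FPKM of short pieces. If SEMA7A and PCDH7 fell short of 25% of their coding region, FPKM per length actually present would be over 16-fold the deposited value, above 0.244 for SEMA7A and above 0.623 for PCDH7 in the *L. megarhynchos* testis. Deposited FPKM is therefore compared between libraries within a gene, and the heights of different genes in the plots of deposited FPKM are not comparable.

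Between species, the EFNB1 values of each tissue are set side by side, since the gene was annotated on both GRCs. The GRCs were assembled from other birds than those sequenced here for RNA. The study also reports that GRC content and copy number vary between the species and between birds of a species. The part of EFNB1 copy number in its ratios, and in its value of 0 in the *L. luscinia* testis, was not tested. As above, the study advises against comparing FPKM between datasets, so the ratios describe these libraries only. The EFNB1 values are also those of the tissue contrast on which it was picked, so the intervals here are not tests. In the ovaries the deposited FPKM was 7.87-fold higher in *L. megarhynchos*. The difference in RPM was 5.66-fold, with an exact interval from counting error of 3.60 to 9.36. On the log2 scale the ratio was 2.95 with the pseudocount, 2.03 per length present and 0.94 with equal summed FPKM. At the *L. megarhynchos* rate the *L. luscinia* ovary would have held 119 reads, and 21 were found. In the testes, 207 reads in *L. megarhynchos* stood against none in *L. luscinia*, where 292 would have been found at the same rate. With 3 reads set in place of 0, *L. megarhynchos* stood 97.4-fold higher, and the exact interval ran from 78.5 upwards. On the pseudocount scale, *L. megarhynchos* was at least 2-fold higher in 30.9% of the 275 rows above 0 in either ovary and in 32.0% of the 259 rows above 0 in either testis. The median log2 ratio of *L. megarhynchos* to *L. luscinia* was 0.96 over the 63 rows above 0 in both ovaries and 0.07 over the 59 rows above 0 in both testes. SEMA7A and PCDH7 were listed at 0 in *L. luscinia*, where a row at 0 may lack reads or lack the gene, so no ratio is given for them. A value above 0 in *L. megarhynchos* alone was common, at 49.1% of the ovary rows and 47.9% of the testis rows. SEMA7A and PCDH7 are 2 of the 60 rows above 0 in both *L. megarhynchos* libraries and in no *L. luscinia* library. EFNB1 is 1 of 6 rows above 0 in every library except the *L. luscinia* testis. Of all 799 rows, 433 were above 0 in no library and 41 in all 4.

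The split of FPKM over libraries was compared between rows by a distance between the shares that the libraries take, where 0 is the same split and 1 is no overlap. Of the summed EFNB1 FPKM, 61.5% was in the *L. megarhynchos* testis, 34.1% in its ovary and 4.34% in the *L. luscinia* ovary. The closest of 64 rows above 0 in at least 3 libraries were LOC107604464 at a distance of 0.197, LOC107604277 at 0.198 and LOC107603488 at 0.229. All of these were above 0 in the *L. luscinia* testis, so none matched EFNB1 there. The *L. megarhynchos* testis held 93.8% of the summed SEMA7A FPKM and its ovary 6.17%. The closest of 183 rows above 0 in at least 2 libraries were LOC101815902 (0.002), LOC101820386 (0.0149) and LOC101809721 (0.0197). PCDH7 had 99.4% in the testis and 0.649% in the ovary, and its closest rows were LOC101821172 (0.00243), LOC101805801 (0.00364) and LOC101819595 (0.00488). Between species the shares also carry the proportion of a gene present on each GRC. The measure rests on 4 libraries and ignores level, and the rows named here carry only automatic names. LOC101821172, for example, had an FPKM of 0.0162 in the *L. megarhynchos* ovary against 3.97 in the testis.

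The identifiers also place each gene in the order of the flycatcher coding sequences. No member shares a flycatcher sequence with another member. Within 100 entries of EFNB1 lie 3 other rows, of which only LOC101820931 was above 0, in the *L. megarhynchos* ovary (FPKM 0.00108). SEMA7A has 4 such rows. LOC101808355, 8 entries away, stood at 115.3 FPKM in the *L. megarhynchos* ovary against 0.15 in the testis, the opposite order to SEMA7A. CPEB1, which encodes an RNA-binding regulator of translation in oocytes, has identifiers 63 and 64 entries away. Both were above 0 in the ovaries and listed at 0 in the testes. The rows near PCDH7 are NFXL1, NCAPG and ADGRA3, and none was above 0 in a testis. C10H15orf59, near SEMA7A, and NCAPG were listed at 0 in all libraries. NFXL1 stood at only 0.00013 in the *L. megarhynchos* ovary and ADGRA3 at 0.00076 in the *L. luscinia* ovary. With so few rows, and low values or 0 near EFNB1 and PCDH7, nothing is read from how these rows compare with the members. The order is that of the flycatcher, and the place of these genes on the nightingale GRC was not analysed here.

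**Figure D3:**
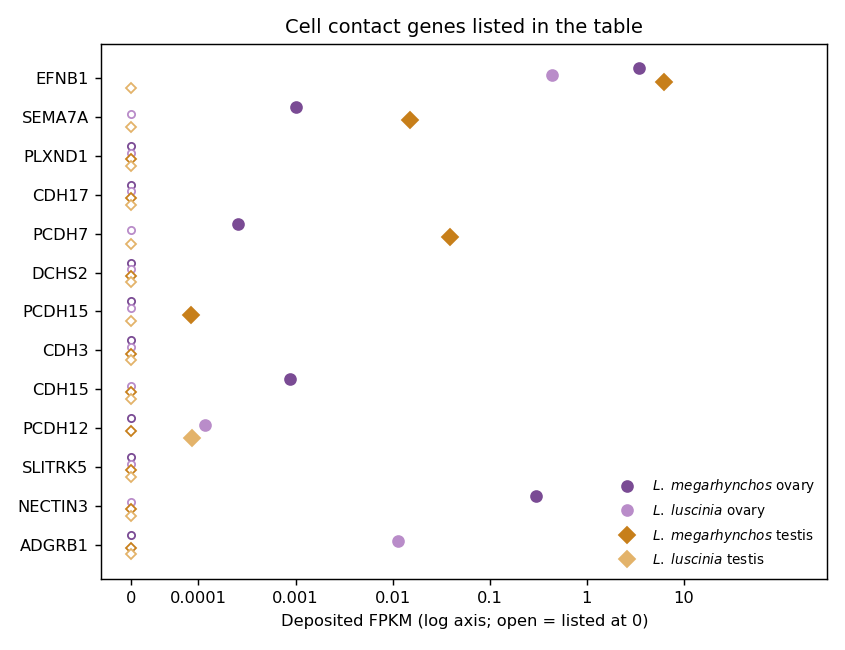
Deposited FPKM (log axis) in each library of the 13 genes on the cell contact lists used here that have a row, with open symbols for values listed at 0. Besides the members, 5 of the 10 other genes are above 0 in a library, each in 1 or both libraries of a single species.

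Lists of ephrins and Eph receptors, semaphorins and their receptors, cadherins and other adhesion molecules found 10 further rows, and 5 of them were above 0 in a library. EFNB1 was the only ephrin in the table, and no Eph receptor had a row. PLXND1, a plexin that binds class 3 semaphorins, was listed at 0 throughout. Of 6 further cadherin superfamily genes, PCDH15, a part of the tip link of hair cells, was above 0 in the *L. megarhynchos* testis only (FPKM 8.5e-05) and CDH15, a cadherin of muscle, in its ovary only (0.000871). PCDH12, a protocadherin of endothelium, was above 0 in *L. luscinia* only, at 0.000117 in the ovary and 8.6e-05 in the testis. CDH3, CDH17 and DCHS2 were listed at 0. NECTIN3, an adhesion molecule of adherens junctions, stood at 0.30 FPKM in the *L. megarhynchos* ovary, from 74 reads (58.1 to 92.9), and was listed at 0 elsewhere. ADGRB1, an adhesion receptor that takes part in the uptake of dying cells, rested on 4 reads in the *L. luscinia* ovary (1.09 to 10.2). SLITRK5 was listed at 0. In *L. megarhynchos* 3 of the 10 were above 0 in a tissue, and on the pseudocount scale 1 of these was at least 2-fold higher in ovary and none in testis, beside 22.5% and 26.6% of all 267 rows above 0 there. In *L. luscinia* 2 were above 0, of which 1 was higher in ovary and none in testis, beside 23.9% and 27.8% of 180 rows. On this scale a row below an FPKM of 0.01 in both tissues cannot reach 2-fold. CDH15, PCDH15 and PCDH12 lay below that, so only NECTIN3 and ADGRB1 (FPKM 0.0112) could be counted, and nothing is read from these counts.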

How the data were processed

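The authors treated the RNA with DNase, and polyadenylated RNA of 4 libraries was read as single-end 150 bp reads. The authors cut adaptors and poor ends with Trimmomatic 0.39, mapped the reads with STAR 2.7.9a to the A chromosomes and GRC assembly of each species together, and used unique hits in GRC exons, which they had found with flycatcher coding sequences. Reads that fit an A-chromosomal copy equally well were therefore left out, while A-chromosomal mRNA misplaced on the GRC would be counted. The deposited values are FPKM, written with decimal commas. The program that counted reads, and whether it used strand, is not given in the sources used here.

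Library sizes and EFNB1 reads were recovered with coding lengths and proportions from the study's supplementary gene table, with a tolerance of 0.01 reads, and 100% of values above 0 of the 192 genes came out whole. On data simulated in the same FPKM form, 100% of reads were recovered, and 100% of 500 whole-number pairs in their lowest terms. Pairs with a common factor counted as recovered at the reduced numbers. The simulated pairs had a larger FPKM per read than SEMA7A and PCDH7 have at their smallest whole numbers. They were also matched with a narrower tolerance and carried no error from recovered library sizes. The simulation therefore cannot show the true reads of SEMA7A and PCDH7 or that their FPKM has this form. Values above 0 were compared as log2(FPKM + 0.01). Read intervals are exact Poisson and ratio intervals exact conditional binomial, at 95%. No test across birds was possible with 1 library per group. Alternatives were other pseudocounts, library scalings, divisors and filters, and symbols merged. The members and lists were chosen with earlier results of these data known. Named genes are the members, the listed cell contact genes and the 3 closest rows by split over libraries. Rows next to a member in an order, near it in the flycatcher, or among the markers were named after their values were seen. Python 3.11.15, numpy 2.4.6, pandas 2.3.3, scipy 1.17.1 and matplotlib 3.10.9 were used. No genome was used here, so coordinates and sequences are not given.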

Additional observations from a re-analysis of the deposited data

Results flagged for a closer look

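EFNB1 stood in opposite order in the tissues of the species, with a log2 ratio of ovary to testis of -0.85 in *L. megarhynchos* and 5.50 in *L. luscinia* (on the FPKM + 0.01 scale). The difference between the species was not tested, since it sets 1 library of each tissue and species side by side.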

How the results depend on the processing

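No log2 ratio of a member changed sign under the alternatives run. The balance of rows higher in ovary or testis did, but only under library scalings that were not planned for these counts. Pseudocounts cannot turn a sign, and no member has a further identifier to merge. Only library scaling and, between species, the divisor could have done so. For EFNB1 in *L. luscinia* and between the testes these could not either, as no read was found in the *L. luscinia* testis. SEMA7A and PCDH7 rest on 3 and 1 ovary reads at the smallest whole numbers. Without a pseudocount or from reads, choices made after seeing the data, the ovary to testis log2 ratio was -3.93 for SEMA7A and -7.26 for PCDH7. A pseudocount of 1, which lies far above their deposited FPKM, brought these ratios to -0.02 and -0.05. For EFNB1, equal summed FPKM gave -2.58 in *L. megarhynchos* and 5.98 in *L. luscinia*, and centring on the median gave -0.15 in *L. megarhynchos*. In *L. luscinia* it was 2.44 and 0.53 with pseudocounts of 0.1 and 1 and 3.25 from reads with 3 taken as the limit in the testis. The EFNB1 ratio between ovaries (2.95) was 1.63 with a pseudocount of 1, 0.94 with equal summed FPKM, 2.0 centred on the median and 2.03 with reads over the adjusted length. That between testes (9.29) was 5.99 and 2.86 with pseudocounts of 0.1 and 1, 9.64 with equal summed FPKM and 6.61 from reads with the same limit, where the exact intervals begin lower. Scaling differs because summed FPKM of *L. megarhynchos* ovary and testis stood at a log2 ratio of 1.74 and their median row at -0.70.

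The rows at least 2-fold higher in ovary and in testis numbered 60 and 71 in *L. megarhynchos* and 43 and 50 in *L. luscinia*. A minimum FPKM of 0.1 gave 37 and 46, and 26 and 30. A minimum of 1 gave 17 and 22, and 13 and 23. A pseudocount of 0.1 gave 35 and 44, and 23 and 29. Identifiers of a symbol summed gave 52 and 70, and 41 and 48. Testis was ahead in all of these planned settings. No pseudocount and the library scalings were choices made for these counts after seeing the data. No pseudocount gave 114 and 124, and 67 and 80. Equal summed FPKM moved the ovary share of these rows from 45.8% to 31.5% in *L. megarhynchos* and from 46.2% to 58.0% in *L. luscinia*, with 46 and 100, and 51 and 37 rows. With the median row set to 0, ovary outnumbered testis in both species, at 70 and 68 (50.7%) and 47 and 44 (51.6%). A minimum of 1 moved the ovary share to 36.1% in *L. luscinia*. No paired analysis was possible because each group holds 1 library.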
